A study of Mus musculus with 6 samples.

Results

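The ELOVL fatty acid elongases are the 7 mouse genes Elovl1 to Elovl7, taken here as the rows of the deposited count table that carry these names. They are 7 of 35976 rows and 7 of the 22147 genes with a count above 0, and 5 of them were among the 13007 genes that passed the filter on low counts. RNA was sequenced from brown adipose tissue (BAT), the fat that burns lipid for heat, in 3 libraries of wild-type littermates (WT) and 3 of mice without Cars2 in fat (AKO), all after 4 h at 4 °C. AKO mice carried a floxed Cars2 gene, which encodes the mitochondrial cysteinyl-tRNA synthetase, together with Adiponectin-Cre, whose adiponectin promoter acts in fat cells of every depot and not in the other cells of BAT. The labels call the controls WT, but the study names its controls of AKO mice wild-type and also Flox. The controls may thus carry the floxed gene too, which is not stated for these samples. The study's methods give an age range of adult mice for its experiments in general and not the age of these mice, and both groups were in the cold, so the values say nothing of a response to cold. The comparison asks which elongases of cold-exposed BAT differ once fat cells lack Cars2.

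Fatty acids longer than palmitate are built in the membrane of the endoplasmic reticulum by a repeating cycle of condensation with malonyl-CoA, reduction, dehydration and a second reduction. ELOVL enzymes carry out the condensation, and each accepts its own range of acyl-CoA chains, while the enzymes of the later steps are shared. Elovl3 is known as a gene that brown fat strongly induces in the cold, and Elovl6 links fatty acid synthesis, which ends at palmitate, to the production of stearate and oleate.

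Promoter windows of 3 members with lower levels in AKO BAT are shown first, to place the letters upstream of these genes beside their counts. The windows run from 250 bases before to 30 bases after the annotated start in RefSeq, build GRCm38.p6, 5′ to 3′ on the strand of the gene. Capitals mark matches, on either strand, to CACGTG (E-box), CCAAT (read as ATTGG on the other strand), TGACGTCA (cAMP element), CCCNNGGG (core bound by EBF factors) or AGGTCA (hormone receptor element, TGACCT on the other strand). The Elovl4 window lies at chr9:83806276-83806555 on the minus strand, the Elovl5 window at chr9:77917115-77917394 on the plus strand and the Elovl6 window at chr3:129532136-129532415 on the plus strand.
Elovl4: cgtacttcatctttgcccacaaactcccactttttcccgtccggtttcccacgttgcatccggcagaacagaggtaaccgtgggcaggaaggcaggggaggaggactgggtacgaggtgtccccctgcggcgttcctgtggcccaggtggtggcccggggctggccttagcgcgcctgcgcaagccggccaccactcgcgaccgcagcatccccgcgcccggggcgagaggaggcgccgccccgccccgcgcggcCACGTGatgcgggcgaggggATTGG
Elovl5: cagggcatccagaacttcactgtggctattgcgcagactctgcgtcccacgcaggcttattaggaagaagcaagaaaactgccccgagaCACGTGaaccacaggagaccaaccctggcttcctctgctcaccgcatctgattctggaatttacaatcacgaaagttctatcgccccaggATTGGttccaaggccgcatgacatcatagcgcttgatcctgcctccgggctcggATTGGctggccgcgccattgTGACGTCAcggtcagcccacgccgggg
Elovl6: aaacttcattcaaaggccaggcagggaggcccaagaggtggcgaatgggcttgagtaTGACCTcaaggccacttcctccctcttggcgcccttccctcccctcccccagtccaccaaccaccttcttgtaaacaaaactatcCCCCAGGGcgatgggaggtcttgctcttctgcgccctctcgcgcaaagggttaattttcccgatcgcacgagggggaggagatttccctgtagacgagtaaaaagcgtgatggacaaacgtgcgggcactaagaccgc

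The Elovl4 and Elovl5 windows both held CACGTG and CCAAT, and the Elovl6 window held neither. Elovl6 had 1 match to CCCNNGGG, 108 bases before the start, and 1 to AGGTCA, and among 32851 promoter windows of the same length 12.99% and 15.35% held these motifs. Elovl5 had CACGTG (6.79% of all windows), 2 matches to CCAAT (36.09%) and 1 to TGACGTCA (1.74%), which began at position 4, counting the start as position 1. Elovl4 had CACGTG from position 6 and 1 CCAAT. No window of a member held TCACNCCAC, a core of sterol response elements that 1.18% of all windows held. Of the other members, Elovl2 had 2 matches to CCCNNGGG in 1 of its 2 windows, Elovl1 had 1 CCAAT and 1 AGGTCA in its 2 windows, and Elovl7 had no match. Of the 7 members, 6 were found in the promoter table, with Elovl3 not analysed here. These matches are descriptions of sequence and carry no information on binding in BAT.

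The targeted gene was lower in every AKO library. Cars2 was at 786, 459 and 632 CPM (counts per 1000000 counts of the library, with the total adjusted for composition by TMM factors) in WT BAT and at 220, 248 and 132 CPM in AKO BAT, a log2 fold change of −1.64 ± 0.23 (SE, n = 3 per group, adjusted p = 0.0001918, edgeR). Adiponectin-Cre does not act in the other cells of BAT, and their part in the remaining Cars2 mRNA was not tested. Library totals ranged from 6540619 to 8461685 counts. Mitochondrially encoded genes took 20.1 to 20.6% of counts in WT and 23.0 to 28.6% in AKO libraries. The study describes the 3 samples of each group as separate mice, and the labels number them without further detail.

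The elongases moved in both directions, with the decreases larger than the increase. Elovl3, Elovl4, Elovl5 and Elovl6 were lower in AKO BAT and Elovl1 was higher, at an adjusted p under 0.05 over all genes tested (edgeR). These were 4 called lower and 1 called higher of the 5 members tested, where 17.5% of all genes tested were called lower, 20.2% higher and 37.6% in either direction. Elovl4 passed the filter on low counts only through its WT libraries, so its being tested depended on its higher WT level. Elovl2 and Elovl7 were removed by this filter. In the fit with no filter on low counts neither of these 2 was called (adjusted p = 0.7524 and 0.8557, edgeR). When libraries were instead scaled on a list of genes of fat cells, Elovl5 was no longer called and the other 4 calls stood. Under that scaling 92.45% of all calls were higher, against 53.56% with TMM and 65.21% with library totals alone. In each of the 5 tested members the 3 AKO libraries lay all on one side of the 3 WT libraries, and 24.4% of all genes tested had AKO libraries all below WT and 25.7% all above. The study's text names Elovl3 and Elovl6 as lower in this comparison, so their direction is no independent evidence.

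**Figure D1:**
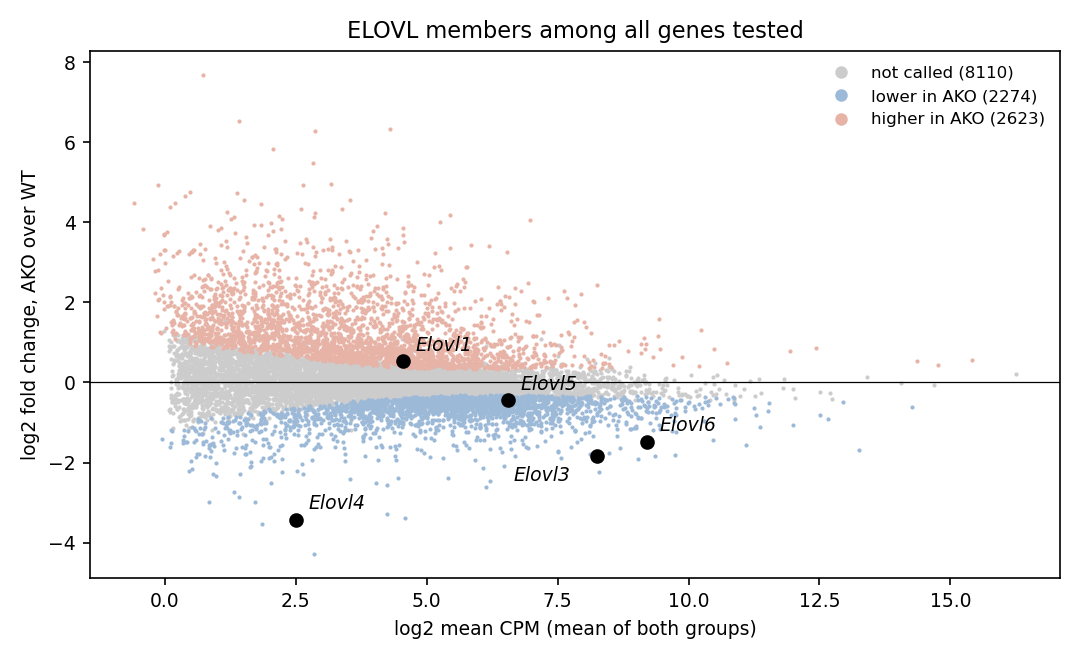
Log2 fold change of AKO over WT (vertical axis) against the log2 of the mean CPM of both groups (horizontal axis) for 13007 genes tested, with the 5 tested elongases as black points and genes called lower or higher in colour. Elovl4 lies near the bottom edge of the cloud, Elovl3 and Elovl6 combine a high level with a large decrease, and Elovl5 and Elovl1 lie closer to 0.

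Elovl6 (chr3:129532355-129638495, plus strand, GRCm38) elongates palmitate to stearate and took more counts than any other elongase. It was at 799, 878 and 921 CPM in WT libraries. In AKO libraries it was at 336, 337 and 258 CPM. The groups were far apart, and even the lowest WT library was at more than 2 times the level of any AKO library. The means were 866 ± 61.6 and 310 ± 45.3 CPM (SD, n = 3 each), a log2 fold change of −1.48 ± 0.14 (SE) with an adjusted p of 1.389e-05 (edgeR). With any 1 library left out it lay between −1.55 and −1.36.

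Elovl3 (chr19:46131897-46135694, plus strand), which extends saturated and monounsaturated chains beyond those made by Elovl6, was at 441, 461 and 523 CPM in WT libraries. AKO libraries had 205, 82.2 and 112 CPM. All AKO libraries were lower, but they differed among themselves by more than those of any other tested member, with a coefficient of variation of 48.15% in AKO against 9.055% in WT, and AKO replicate 1 stood highest. The means were 475 ± 43.0 and 133 ± 64.2 CPM, a log2 fold change of −1.83 ± 0.26 (adjusted p = 0.000178, edgeR). Without AKO replicate 1 the log2 fold change was −2.28, and without AKO replicate 2 it was −1.58. With the scaling on fat cell genes it was −1.40, and for Elovl6 −1.05, where the median of all genes was 0.45.

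The 3′ end of Elovl3 overlaps Pitx3, a transcription factor gene on the opposite strand, by 10 bases. Pitx3 was at 19.8, 23.4 and 25.3 CPM in WT and 14.5, 5.59 and 8.11 CPM in AKO libraries, so that within each group the libraries stood in the order of their Elovl3 levels. Its log2 fold change was −1.27 ± 0.27 (adjusted p = 0.00277, edgeR). Pitx3 had 4.49 to 5.08% as many counts as Elovl3 in WT and 6.80 to 7.22% in AKO libraries. Whether the counting used strand was not found in the sources read here, so reads of either gene near the shared end cannot be told apart, and their part in the Pitx3 value was not tested.

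Elovl4 (chr9:83778692-83806277, minus strand), which makes the longest chains, saturated and polyunsaturated, and is best known from retina, skin and brain, fell furthest. Its counts were 89, 57 and 96 in WT libraries. AKO libraries held 9, 7 and 6. In CPM these were 10.7, 7.26 and 13.1 against 1.08, 0.889 and 0.854, so each WT library was several times above each AKO library. The group means were 10.3 ± 2.94 and 0.941 ± 0.121 CPM, so that AKO was at 9.10% of WT, and the log2 fold change was −3.43 ± 0.32 (adjusted p = 1.131e-05, edgeR). Among 2274 genes called lower, Elovl4 had rank 3 by the size of its log2 fold change, compared with rank 57 for Elovl3 and 137 for Elovl6. The AKO level rests on 22 counts in all, against 242 in WT. Elovl4 thus passed the filter on low counts only through its WT libraries, and its call and rank depend on that. With AKO libraries close to the limit of detection, the size of the decrease is uncertain. Leaving out any 1 library moved the log2 fold change between −3.64 and −3.24, and under the scaling on fat cell genes it was −3.01.

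Elovl5 (chr9:77917364-77984519, plus strand), the main elongase of polyunsaturated chains, fell much less. It was at 106, 112 and 108 CPM in WT libraries and at 78.5, 87.5 and 73.7 CPM in AKO libraries. WT libraries were nearly level with each other, and the highest AKO library stayed below the lowest WT library. The means were 108 ± 3.08 and 79.9 ± 7.01 CPM, a log2 fold change of −0.44 ± 0.12 (adjusted p = 0.01134, edgeR). With library totals alone the log2 fold change was −0.35 (adjusted p = 0.02997, edgeR), against a median of all genes of 0.10. With the scaling on fat cell genes it was −0.0032 (adjusted p = 0.9881, edgeR), against a median of all genes of 0.45, so the decrease of Elovl5 held relative to all transcripts of the tissue and not relative to the list of fat cell genes.

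Elovl1 (chr4:118428093-118432953, plus strand), which supplies very long saturated and monounsaturated chains for sphingolipids, was the only member called higher. Its values were 20.9, 18.6 and 17.9 CPM in WT and 33.4, 23.0 and 26.9 CPM in AKO libraries. The lowest AKO library was close above the highest WT library, and AKO replicate 1 was the highest of all. The means were 19.1 ± 1.55 and 27.8 ± 5.23 CPM, a log2 fold change of 0.54 ± 0.16 (adjusted p = 0.0199, edgeR). This call did not stand without WT replicate 2 (0.51, adjusted p = 0.0734), without WT replicate 3 (0.48, adjusted p = 0.08256) or without AKO replicate 1 (0.39, adjusted p = 0.06102, all edgeR). Elovl1 overlaps the cell division gene Cdc20 on the opposite strand by 53 bases, and Cdc20 had 7, 6 and 1 counts in WT and 25, 9 and 14 in AKO libraries, at most 8.99% of the Elovl1 counts of a library.

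Elovl2 and Elovl7 were close to the limit of detection in BAT and were removed by the filter on low counts. Elovl2 (chr13:41182381-41220405, minus strand), which extends long polyunsaturated chains and is best known from liver and testis, had 1, 3 and 2 counts in WT and 1, 2 and 1 in AKO libraries. The ratio of AKO to WT was 0.675, with an exact 95% interval of 0.140 to 2.85 for counting error only. Elovl7 (chr13:108214404-108285683, plus strand), which extends saturated chains, had 8, 3 and 4 against 2, 6 and 5 counts, a ratio of 0.877 with an interval of 0.384 to 1.98. Both intervals reach from a marked decrease to a marked increase, so a difference was not detectable at this depth.

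**Figure D2:**
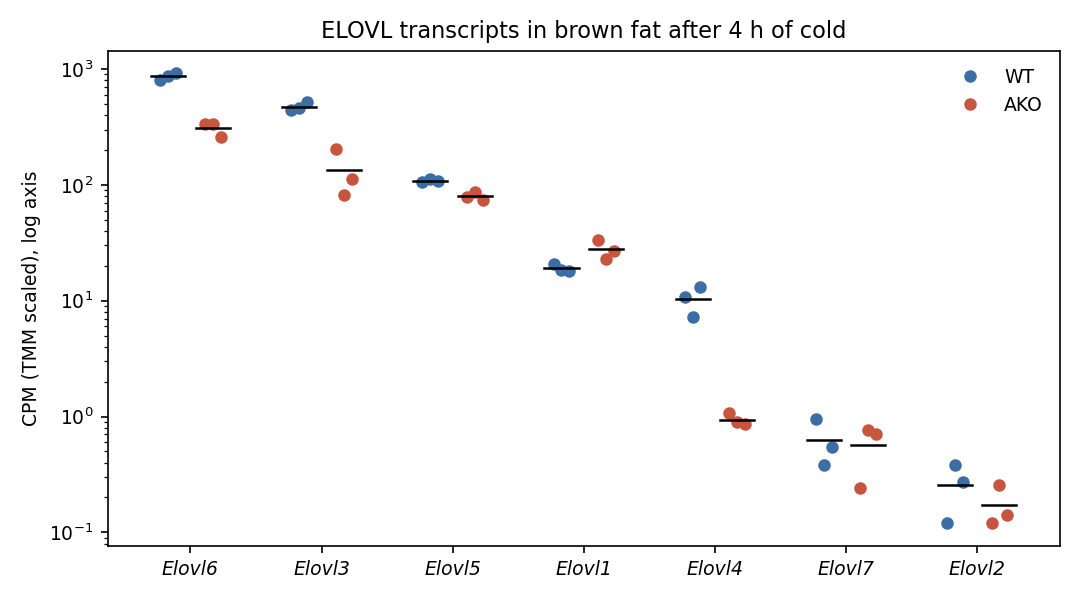
Level of each of the 7 elongases in CPM on a log axis, with 1 point per library (WT blue, AKO red, n = 3 each) and a black line at the group mean. The groups are apart for Elovl6, Elovl3, Elovl5, Elovl1 and Elovl4, with Elovl1 the only one of these whose AKO points are higher, and they overlap for Elovl7 and Elovl2.

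Levels of different genes were compared per length, as CPM per kb of annotated exon. In WT BAT the order was Elovl3 (241 ± 21.8 CPM per kb), Elovl6 (135 ± 9.58), Elovl5 (30.8 ± 0.874), Elovl1 (7.01 ± 0.570), Elovl4 (3.42 ± 0.972), Elovl7 (0.157 ± 0.0741) and Elovl2 (0.0651 ± 0.0332). Each neighbour in this order was apart in every library except Elovl7 and Elovl2, whose ranges met. In AKO BAT the order of the means was the same, at 67.5 ± 32.5 for Elovl3, 48.3 ± 7.04 for Elovl6, 22.7 ± 1.99 for Elovl5, 10.2 ± 1.92 for Elovl1 and 0.311 ± 0.0401 CPM per kb for Elovl4. Elovl3 was no longer apart from Elovl6 there, since in AKO replicate 2 Elovl3 was at 41.6 and Elovl6 at 52.4 CPM per kb.

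The summed level of the family was 389, 411 and 450.0 CPM per kb in WT libraries and 191, 128 and 128 in AKO libraries. The AKO mean was 35.8% of the WT mean, and the groups did not overlap. Elovl3 and Elovl6 together made up 89.3 to 90.7% of this sum in WT libraries and 73.5 to 81.7% in AKO libraries, lower in each AKO library than in any WT library. The share of Elovl3 was 57.7 ± 1.07% in WT (SD, n = 3) and 43.8 ± 10.9% in AKO BAT, where replicate 1 held 54.4%, replicate 2 32.6% and replicate 3 44.4%. The share of Elovl5 was 7.41 ± 0.509% in WT and 15.8 ± 3.92% in AKO, and that of Elovl1 was 1.70 ± 0.257% and 6.89 ± 0.694%, both higher in all 3 AKO libraries. Elovl4 went from 0.818 ± 0.205% to 0.212 ± 0.0227%. Elovl6 kept a share of 32.3 ± 0.753% in WT and 33.2 ± 7.02% in AKO, with AKO libraries on both sides of the WT libraries. Within a library, Elovl3 stood at 1.71 to 1.85 times Elovl6 in WT and at 1.99, 0.795 and 1.42 times in AKO replicates 1 to 3. These shares are descriptions with no test, and a larger share of Elovl5 accompanied a lower level of Elovl5.

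**Figure D3:**
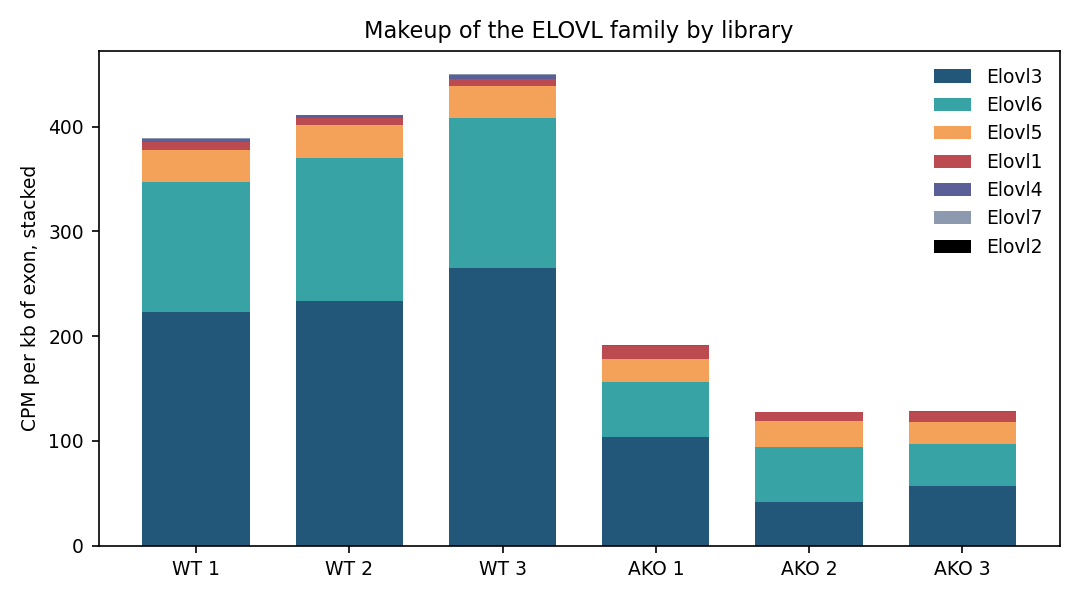
Stacked level of the 7 elongases in each library, in CPM per kb of exon, with 1 bar per library. WT bars reach 389 to 450.0 and AKO bars 128 to 191, and the shrinkage lies in the blocks of Elovl3 and Elovl6, while Elovl7 and Elovl2 are too low to see.

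Markers of fat cells and of several other cell types of the tissue also differed between the groups. Markers of brown fat cells, a list that contains Elovl3, summed to 20331 to 21615 CPM in WT and 6209 to 9852 CPM in AKO libraries, with 10 of 11 called lower, and genes of fat cells in general to 38865 to 44198 against 24649 to 29648 CPM (10 called lower and 2 higher of 20). Macrophage markers summed to 253 to 308 against 911 to 1268 CPM, with 12 of 14 tested called higher and Marco and Clec4f too low to test. Fibroblast and progenitor markers were at 816 to 1236 against 2161 to 2815 CPM (8 of 11 called higher), skeletal muscle markers at 65.8 to 457 against 977 to 2004 CPM (11 of 11 called higher) and genes typical of white fat at 77.0 to 92.8 against 225 to 292 CPM (5 of 6 tested called higher, with Hoxc10 and Tcf21 at 0). Endothelial markers summed to 985 to 1070 against 991 to 1016 CPM, but 2 of 9 were called lower, Kdr among them (282 ± 8.39 to 139 ± 17.6 CPM), and 2 higher. Mural cell markers were at 337 to 390.1 against 388 to 514 CPM (1 of 6 called higher), Schwann cell and nerve markers at 249 to 310.3 against 205 to 281 CPM (2 of 6 tested called lower), and lymphocyte markers at 2.42 to 5.64 against 5.76 to 18.6 CPM (the 1 tested called higher). Of the sebaceous gland list, a skin structure rich in elongases, Awat1 was at 0, Krt5, Krt14 and Awat2 were below 1 CPM in every library, and the sum of 319 to 362 against 224 to 310.3 CPM was mostly Mgst1, a gene of many tissues, at 282 to 329 against 195 to 271 CPM. Of the 5 tested genes of this list, 0 were called higher and 1 lower, Krt10 (3.47 ± 0.726 to 1.90 ± 0.329 CPM, adjusted p = 0.03991, edgeR). Far2 (25.1 to 19.7 CPM) and Krt79 (3.06 to 4.65 CPM) were not called and moved in opposite directions. Mc5r, not called, was at 2.64 to 2.93 CPM in WT and at 0.600, 10.3 and 0.285 CPM in AKO libraries. In bulk tissue, fewer cells of a type and less RNA per cell cannot be told apart, and the part of these other cells in the values of the elongases was not tested.

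Most enzymes that complete the elongation cycle fell as well. Of 7 genes, 6 were tested, 4 were called lower and 1 higher, with a median log2 fold change of −0.63 against 0.0088 over all genes, and under the scaling on fat cell genes 2 were called lower and 1 higher. Hsd17b12, the 3-ketoacyl-CoA reductase of the cycle, was at 529, 565 and 504 CPM in WT and at 338, 268 and 214 CPM in AKO libraries, with a log2 fold change of −0.96 ± 0.16 (adjusted p = 0.0005735, edgeR). Hacd2, a 3-hydroxyacyl-CoA dehydratase, was at 634, 651 and 672 against 355, 287 and 239 CPM, a log2 fold change of −1.15 ± 0.15 (adjusted p = 0.000104). For both genes the 2 groups were well apart, and AKO replicate 3 was lowest.

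Of the other dehydratases, Hacd1 fell from 25.3 ± 3.62 to 14.5 ± 3.16 CPM (log2 fold change −0.80 ± 0.18, adjusted p = 0.004829, edgeR). Hacd3 fell from 30.1 ± 0.535 to 21.9 ± 1.66 CPM (−0.46 ± 0.13, adjusted p = 0.0154), a call lost without WT replicate 3 (−0.46, adjusted p = 0.05348) or AKO replicate 3 (−0.41, adjusted p = 0.06175), with library totals alone (−0.37, adjusted p = 0.05291) and under the scaling on fat cell genes (−0.03, adjusted p = 0.9191). Under that scaling Hacd1 was not called either (−0.38, adjusted p = 0.14, edgeR). Hacd4 went the other way, from 2.33 ± 0.256 to 6.67 ± 1.00 CPM (1.50 ± 0.25, adjusted p = 0.0006247), and its 154 counts in AKO against 55 in WT libraries rest on few reads. Tecr, the enoyl-CoA reductase of the last step, was at 222, 264 and 242 against 221, 182 and 170.4 CPM. It was not called (−0.34 ± 0.14, adjusted p = 0.0622), though without AKO replicate 1 it was (−0.46, adjusted p = 0.01344, all edgeR). Tecr was also called with no filter on low counts (−0.38, adjusted p = 0.02892, edgeR) and with DESeq2 (−0.35, adjusted p = 0.04367). Its relative Tecrl had 4 counts in all, each of them in AKO libraries, and was not tested.

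Several desaturases of low level, which insert double bonds before or after elongation, rose in AKO BAT, while Scd1, by far the most abundant, was not called. All 8 were tested, 5 were called higher and 0 lower (edgeR, with 0 lower at an unadjusted p under 0.05, and 0 called lower with DESeq2 or limma-voom, but 1 lower and 4 higher with no filter on low counts), with a median log2 fold change of 0.67. Scd2, a delta-9 desaturase, rose from 50.5 ± 1.93 to 146 ± 6.21 CPM (log2 fold change 1.53 ± 0.12, adjusted p = 3.916e-06, edgeR). Fads3, a relative of the polyunsaturated chain desaturases, rose from 32.8 ± 6.79 to 135 ± 33.6 CPM (2.05 ± 0.19, adjusted p = 1.268e-05) and Fads1, the delta-5 desaturase, from 17.2 ± 2.12 to 28.7 ± 0.738 CPM (0.75 ± 0.14, adjusted p = 0.001567). Scd3 had a log2 fold change of 1.02 ± 0.31 (adjusted p = 0.02027, edgeR), but its groups overlapped. It was at 22.9, 10.3 and 7.92 CPM in WT and 30.4, 20.8 and 33.0 CPM in AKO libraries. Scd3 was not called without WT replicate 2, WT replicate 3, AKO replicate 1 or AKO replicate 3 (adjusted p from 0.05173 to 0.08939, edgeR). With DESeq2 it was not called either (adjusted p = 0.1009). With DESeq2, or without WT replicate 2, WT replicate 3 or AKO replicate 3, 3 desaturases were called higher. Scd1, the delta-9 desaturase that took most counts of the list and is named here after its values were seen, was at 32238, 27860 and 20530 CPM in WT and 31914, 23773 and 21221 CPM in AKO libraries (−0.07 ± 0.20, adjusted p = 0.8199, edgeR). The groups overlapped for Scd1 and for the summed level of the list, at 20642 to 32379 CPM in WT and 21558 to 32320 CPM in AKO libraries. The near-identical Scd genes may share reads, which makes their single values uncertain.

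Genes that supply the substrates of elongation were mixed. Of 9 tested, 2 were called lower and 1 higher, where 37.6% of all genes tested were called in either direction. Under the scaling on fat cell genes 1 was called lower and 3 higher. Acly, which makes cytosolic acetyl-CoA from citrate, rose from 425 ± 96.1 to 941 ± 100.3 CPM (log2 fold change 1.15 ± 0.17, adjusted p = 0.0002345, edgeR). Acacb, a maker of malonyl-CoA, fell from 862 ± 122 to 462 ± 66.0 CPM (−0.90 ± 0.15, adjusted p = 0.0006134), and Mlycd, which degrades malonyl-CoA, fell from 116 ± 21.9 to 64.1 ± 10.9 CPM (−0.86 ± 0.16, adjusted p = 0.001306). Acaca, which also makes malonyl-CoA, was at 1004 ± 212 and 806 ± 115 CPM and was not called (−0.32 ± 0.17, adjusted p = 0.1622, edgeR). Without WT replicate 1 the number called lower was 5, and without AKO replicate 1 it was 4. With no filter on low counts 6 were called lower and 2 higher.

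The known regulators of elongase and lipogenic genes were also mixed, with 7 called lower and 3 higher of 16, and 2 lower and 5 higher under the scaling on fat cell genes. Esrra, an orphan nuclear receptor of oxidative genes, fell from 219 ± 28.7 to 108 ± 20.5 CPM (log2 fold change −1.02 ± 0.16, adjusted p = 0.0003237, edgeR), and Mlx, the partner of the glucose-responsive factor ChREBP, from 102 ± 3.83 to 49.3 ± 17.1 CPM (−1.05 ± 0.19, adjusted p = 0.001106). Srebf1, the sterol-regulated activator of lipogenesis, rose from 65.4 ± 12.0 to 120.4 ± 6.12 CPM (0.88 ± 0.14, adjusted p = 0.0005403), and Insig2, which retains SREBP proteins in the endoplasmic reticulum, fell from 43.5 ± 3.92 to 25.8 ± 2.30 CPM (−0.75 ± 0.13, adjusted p = 0.0009164). Insig1, a relative of Insig2, went the other way, from 104 ± 26.0 to 168 ± 25.0 CPM (0.69 ± 0.18, adjusted p = 0.009091, edgeR). Without WT replicate 2 or AKO replicate 3, 3 regulators were called lower.

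Among the genes that activate long chains as acyl-CoA, 8 of 12 were tested, with 4 called lower and 1 higher. Under the scaling on fat cell genes 4 were still called lower and 3 higher. Slc27a2, which activates and takes up very long chains, was at 532, 525 and 483 CPM in WT and 142, 99.1 and 86.3 CPM in AKO libraries (log2 fold change −2.23 ± 0.17, adjusted p = 4.598e-06, edgeR), a clear separation of the groups. The synthetases Acsl5 (−1.75 ± 0.23, adjusted p = 0.0001071), Acsl1 (−1.12 ± 0.17, adjusted p = 0.0003357) and Slc27a4 (−0.99 ± 0.16, adjusted p = 0.0005909) fell as well. Of the 6 ceramide synthases, which join such chains to sphingoid bases, 4 were tested and 1 was called higher, where 20.2% of all genes tested were. This was Cers6, which prefers palmitoyl chains, from 1.33 ± 0.310 to 6.93 ± 0.948 CPM (2.38 ± 0.28, adjusted p = 6.161e-05, edgeR). Cers6 had only 11, 8 and 12 counts in WT libraries. Cers2, which uses the very long chains that Elovl1 makes, was at 172 ± 4.27 and 206 ± 15.5 CPM (0.26 ± 0.12, adjusted p = 0.1049) and was called under 4 of 16 alternatives. Cers5 and Cers4 had log2 fold changes of 0.23 ± 0.14 and 0.18 ± 0.25 and were not called. Under the scaling on fat cell genes 3 ceramide synthases were called higher, with Cers5 at 0.67 (adjusted p = 0.01073, edgeR).

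Peroxisomal genes, which import and shorten very long chains, were called lower for 6 and higher for 1 of 13, although under the scaling on fat cell genes 0 were called lower (1 at an unadjusted p under 0.05, edgeR) and 5 higher. The transporter Abcd3 fell from 258 ± 33.2 to 153 ± 7.86 CPM (log2 fold change −0.75 ± 0.13, adjusted p = 0.0008024, edgeR) and the thioesterase Acot8 from 33.9 ± 3.42 to 18.2 ± 2.57 CPM (−0.89 ± 0.15, adjusted p = 0.0006419). Acox2, the oxidase of branched chains, rose from 0.682 ± 0.294 to 4.30 ± 1.57 CPM (2.62 ± 0.41, adjusted p = 0.0003769, edgeR). With 4, 8 and 4 counts in WT against 28, 27 and 43 in AKO libraries, Acox2 passed the filter on low counts only through AKO.

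The genes most like the 2 elongases of highest level were found by Pearson's r of log2(CPM + 1) over the 6 libraries, among 9618 genes whose mean was 5 CPM or more. The values mainly follow the difference between the groups and are a description. The genes were chosen by r, so their direction and their order of libraries largely follow from that choice. Closest to Elovl6 were Apmap, a membrane protein of fat cells (r = 0.9984), Ddhd2, a phospholipase and triglyceride lipase (r = 0.9979), and Ctcflos (r = 0.9977). Apmap was at 679, 701 and 710.0 CPM in WT and 347, 332 and 277 CPM in AKO libraries, lower in all 3 AKO libraries. Closest to Elovl3 were Lzic (r = 0.9978), Rgl3 (r = 0.9973) and Arhgef7 (r = 0.9973), whose AKO libraries kept the order of Elovl3, with replicate 1 highest and replicate 2 lowest, at smaller log2 fold changes of −0.58, −0.82 and −0.33.

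The log2 fold changes of the members were computed under 16 alternatives. Elovl3, Elovl4 and Elovl6 were called lower under each of the 16, with log2 fold changes between −2.28 and −1.40, −3.64 and −3.01, and −1.55 and −1.05. Elovl5 was called under 15 and Elovl1 under 13.

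**Figure D4:**
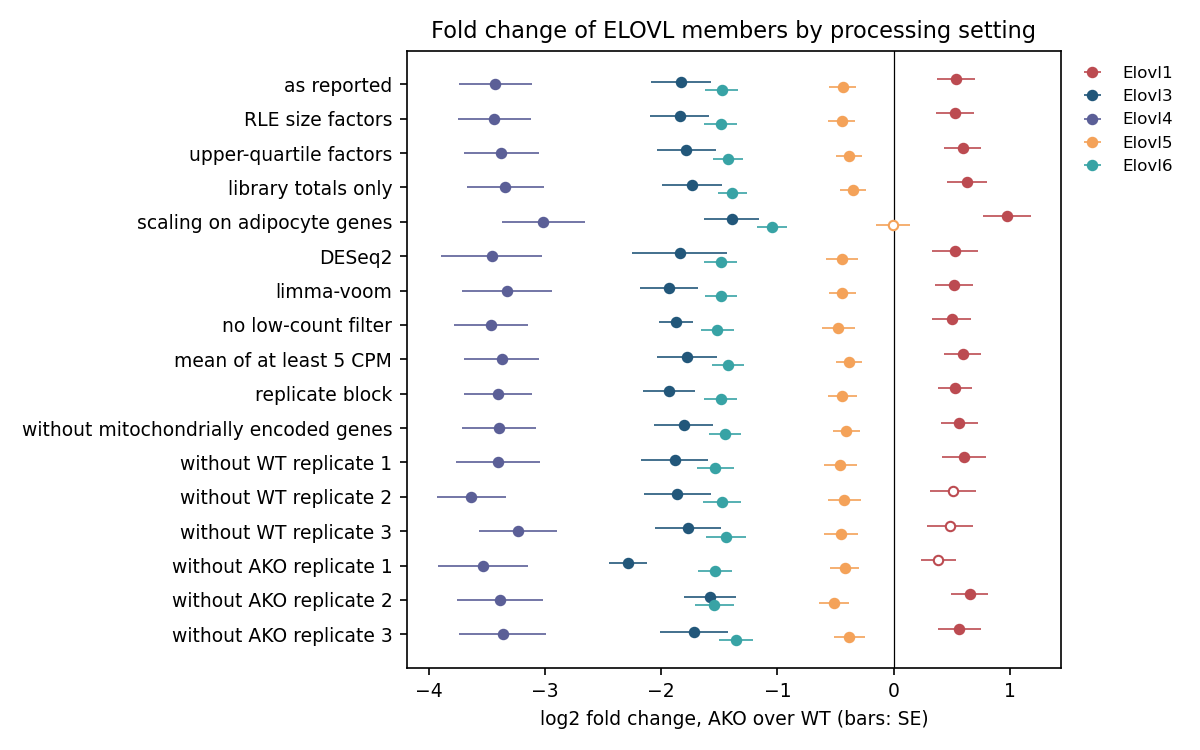
Log2 fold change of AKO over WT (horizontal axis, bars show the SE) of the 5 tested elongases under each processing setting, 1 row per setting, with filled points called and open points not called. Open points occur for Elovl5 with the scaling on fat cell genes and for Elovl1 without WT replicate 2, WT replicate 3 or AKO replicate 1.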

How the data were processed

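BAT mRNA was enriched with oligo(dT) and sequenced as DNA nanoballs. The authors deposited whole-number counts per gene, not normalized. The study's methods name STAR, HTSeq and DESeq2, but the processing notes of the submitters list Bowtie2, RSEM 1.3.1, DESeq2 1.4.5 and the build mm10, with no role for any. No source read here gives the annotation release, the strand setting or the treatment of multi-mapping reads. Counts were tested with edgeR 4.0.16 in R 4.3.3 (filterByExpr by group, TMM factors, quasi-likelihood F test, genotype alone in the design), with Benjamini-Hochberg adjustment over 13007 genes, and an adjusted p under 0.05 was called. The filtered genes held 0.226% of counts. The SE was the log2 fold change divided by the square root of F. Alternatives were other scaling, including a median of ratios over 20 fat cell genes, DESeq2 1.42.0, limma-voom (limma 3.58.1), other filters, a replicate block, no mitochondrially encoded genes, and each library left out.

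Members and lists were chosen with earlier results of these data known. The genes named were all members, Cars2, the cycle partners, and up to 4 called genes of lowest p per other list, or the 4 of highest level where fewer than 2 were called, and 1 gene that this rule names is not reported here. For the 2 members of highest level per kb, the 3 genes of highest r were added. Pitx3 and Cdc20 were named for their overlap with members, and Scd1, Kdr and Mgst1 for their place in a list sum. Krt10, Krt79, Far2 and Mc5r were named as tested genes of the sebaceous gland list, and Insig1 and Acaca as relatives of named genes. All of these were named after their values were seen. Lengths and gene positions come from GENCODE M21 and promoters from RefSeq. Promoter windows were planned to end 50 bases after the start and were cut to 30. Protein sequences were not analysed here. The procedure was tested on simulated data. No 2 libraries were duplicates, since chi-square per degree of freedom was 5.17 to 17.5 between libraries of a group.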

Additional observations from a re-analysis of the deposited data

How the results depend on the processing

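Under the scaling on fat cell genes, 438 genes were called lower and 5365 higher, against 2274 and 2623 with TMM. Elovl5 had a log2 fold change of −0.0032, the number of elongation partners called lower was 2 and Tecr changed sign to 0.0967. By construction this scaling sets the fat cell genes, of which 10 of 20 were lower with TMM, near 0, and the median of all genes became 0.45. With library totals alone that median was 0.10. With a mean of at least 5 CPM required, 0 elongation partners were called higher, since Hacd4 was below this level. Cers6 and Acox2 were below it too and were not tested there. With any 1 library left out, the log2 fold change of Elovl1 lay between 0.39 and 0.65 and the number of members called higher was 0 to 1. With lengths of the longest transcript, the WT share of Elovl3 was 55.9% and that of Elovl5 8.66%.

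Whether replicate numbers pair the samples cannot be decided from so few libraries per group. Correlations of the deviations of same-numbered libraries were −0.0184, 0.0116 and 0.183, and the libraries of replicate 3 correlated best with each other. With the replicate number as a block, 2290 genes were called lower and 2636 higher, the members called lower were 4 and higher 1, and not every library correlated best with its own number. Of the pathway lists, the number of substrate supply genes called higher was 2 in place of 1 and that of regulators 4 in place of 3, and the other counts were as before. With no filter on low counts, 2 genes of acyl-CoA activation and 2 peroxisomal genes were called higher, in place of 1 each.

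Limits are the 3 libraries per group, the 22 counts behind Elovl4 in AKO, too few counts for Elovl2 and Elovl7, and bulk tissue in which markers of several cell types differed between groups.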
